A study of Arabidopsis thaliana with 12 samples.

Results

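MICU (AT4G32060) is the Arabidopsis regulator of mitochondrial calcium uptake, and its transcript was followed here on an array in plants lacking a plastocyanin isoform and in wild-type plants. It was taken as the probe that the platform's probe table assigns to AT4G32060 alone, probe 2366. This is 1 gene of the 691 that had a probe of their own on the array, and none of the 870 probes listing several genes names it. The gene was chosen because earlier results on these data placed it among the larger rises in pete2. Its contrast between the genotypes is therefore given as a description, without a test.

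Calcium enters the mitochondrial matrix through a uniporter channel of the inner membrane, driven by the membrane potential. MICU proteins carry EF hands, helix-loop-helix folds that bind calcium, and they sit on the uniporter as its calcium sensor. In Arabidopsis MICU restrains uptake, so that calcium transients in the matrix follow those of the cytosol in a damped form. Plastocyanin, the protein missing in part from the mutant, belongs to another organelle: it carries electrons to photosystem I in the chloroplast lumen.

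The study compared total RNA of the pete2 mutant (6 samples), which lacks 1 of the plastocyanin isoforms, with that of wild type (WT, 6 samples). Both genotypes were in ecotype Columbia 0 and both were grown on soil. The labels number the samples 1 to 6 within each genotype and give neither the organ nor the age of the plants. They do not say that the samples came from separate plants, so the spread between samples, on which every p-value below rests, may be technical. The mutated gene could not be checked, because neither plastocyanin locus is named in the probe table. None of the 23 marker loci for mesophyll, roots, vascular tissue, guard cells, flowers, dividing cells or senescence had a probe of its own, so the tissue could not be checked either. In these bulk samples fewer cells of a type and less RNA per cell cannot be told apart.

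The deposited intensity of MICU was 4.51, 4.83, 3.71, 3.57, 2.46 and 1.97 in pete2 samples 1 to 6. In WT samples 1 to 6 it was 0.977, 1.09, 1.94, 1.5, 0.875 and 0.833. These are linear values in arbitrary units, on a scale that ended just under 100 in every sample. All 6 pete2 values lay above all 6 WT values, but the groups almost met, with the lowest pete2 value (1.97, sample 6) 1.02 times the highest WT value (1.94, sample 3). Of the 3321 probes tested, 0.994% had deposited values that did not overlap between the genotypes and were higher in pete2.

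Quantile normalization, which gives every sample the same distribution of intensities, moved the genotypes further apart. Normalized MICU was 4.70, 5.02, 3.78, 3.7, 2.67 and 2.18 in pete2 samples 1 to 6, and 0.95, 1.01, 1.6, 1.25, 0.712 and 0.651 in WT samples 1 to 6. The lowest pete2 value was then 1.36 times the highest WT value. The means were 3.67 ± 1.11 in pete2 and 1.03 ± 0.354 in WT (SD, n = 6 each). On the log2 scale the difference, pete2 minus WT, was 1.84 ± 0.263 (SE of the fit over all probes), which is 3.59-fold. After normalization 3.31% of the tested probes did not overlap and were higher in pete2. By its log2 difference MICU was number 18 from the top among 665 tested single-gene probes and number 92 among all 3321. The second place depended on the processing, from number 16 with a pseudocount of 0.1 in place of the floor to number 163 without samples 5 and 6 of both genotypes.

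**Figure D1:**
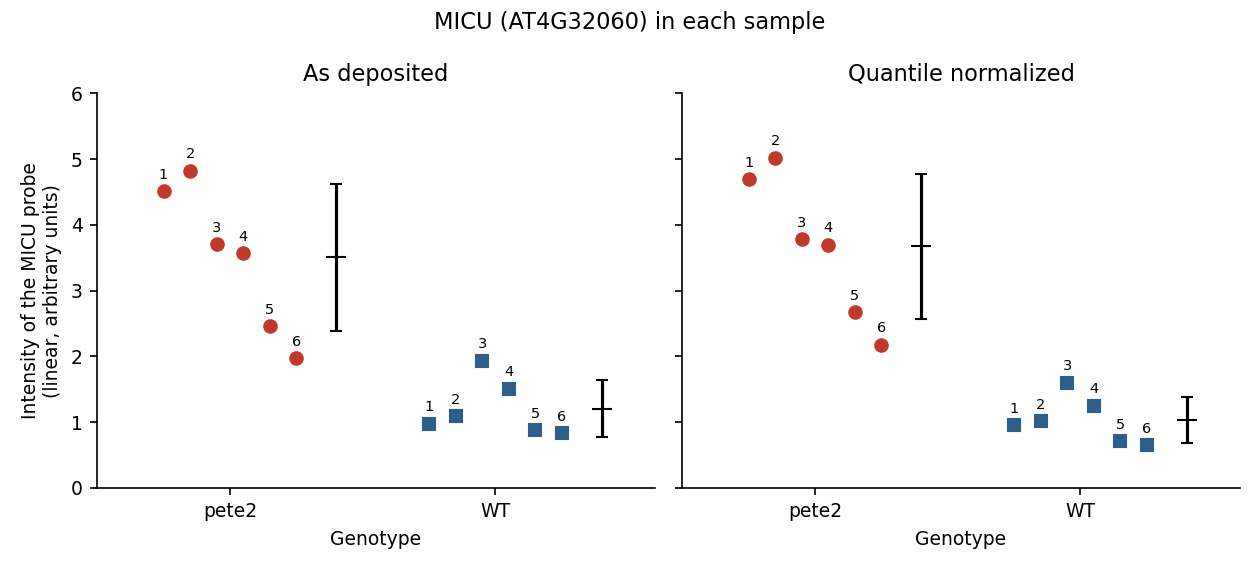
Intensity of the MICU probe in each sample, as deposited (left) and after quantile normalization (right), on a linear axis in arbitrary units. Points carry the sample numbers of the labels, and the black bars give the mean and SD of 6 samples. The pete2 samples lie above the WT samples in both panels, with the smallest gap between pete2 sample 6 and WT sample 3.

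The size of the difference depended on the sample number. Between samples of the same number the normalized ratio, pete2 over WT, was 4.94 and 4.95 for numbers 1 and 2. It was 2.36 and 2.96 for numbers 3 and 4, and 3.75 and 3.34 for numbers 5 and 6. The ratio was above 1 for all 6 numbers, which follows from the genotypes not overlapping and adds nothing to it. It was above 1 for all 6 numbers in 8.88% of the tested probes. Against numbers 1 and 2, the smaller ratios of numbers 3 and 4 went with both genotypes. WT samples 3 and 4 held the highest MICU values of their genotype (1.6 and 1.25). In pete2 the highest were samples 1 and 2 (4.70 and 5.02), with samples 3 and 4 lower (3.78 and 3.7). As deposited, the 6 ratios were 4.62, 4.43, 1.92, 2.37, 2.81 and 2.37. The labels do not say what a shared number means, so these ratios describe pairs of values and not paired plants.

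Samples 1 and 2, 3 and 4, and 5 and 6 of each genotype resembled each other in MICU, except WT samples 3 and 4. These differed by 0.36 in log2 value, and WT sample 4 lay slightly nearer to WT sample 2. Over all such neighbours the log2 values differed by 0.17 on average, against 0.69 for other pairs of samples of the same genotype. Probes of similar brightness behaved alike: 198 probes with no zeros, nearest to MICU in mean log2 value, had medians of 0.17 and 0.61 for the same measures. The SD of log2 MICU was 0.47 in pete2 and 0.49 in WT (n = 6 each), against medians of 0.40 in pete2 and 0.44 in WT over these probes. Both lay inside the interquartile ranges of these probes, 0.26 to 0.58 in pete2 and 0.27 to 0.77 in WT. The labels do not say whether such pairs are repeats of 1 sample. If they were, n would be 3 and not 6 per genotype, and p-values over 12 samples would be too small. Averaging the 3 pairs of each genotype, which cannot change the log2 difference, gave it an SE of 0.388. The pair means were 4.86, 3.74 and 2.42 in pete2, and 0.982, 1.43 and 0.681 in WT.

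The place of MICU within a sample does not depend on scaling between samples. In pete2 samples 1 to 6 it was number 84, 80, 99, 101, 131 and 156 from the brightest of 3439 probes. In WT samples 1 to 6 it was number 335, 313, 204, 254, 445 and 483. The share of probes dimmer than MICU was 96.8% ± 0.855 in pete2 and 90.1% ± 3.13 in WT (SD, n = 6 each), and the genotypes did not overlap, with a lowest pete2 value of 95.5% and a highest WT value of 94.1%. Ranks did not overlap and were higher in pete2 for 3.73% of the tested probes. These places order spots by brightness and do not order genes by transcript number, since probes differ in length and labelling.

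The number of zeros differed between the samples too. Probes listed at 0 made up 17.2%, 17.1%, 21.6%, 21.5%, 30.7% and 28.6% of pete2 samples 1 to 6, and 15.7% to 17.8% of the WT samples. The pete2 samples with most zeros, 5 and 6, had the lowest MICU of their genotype, and at these numbers the share of dimmer probes differed most, by 9.13 and 9.51 percentage points. Samples 1 and 2, in which the zeros were alike (17.2% and 17.1% in pete2, 17.8% and 17.3% in WT), showed the largest ratios of MICU intensity, 4.62 and 4.43 as deposited. With MICU taken relative to the median probe of its sample, the order changed. The ratios were then 3.26, 3.38, 3.32, 4.33, 9.51 and 7.77 for numbers 1 to 6, largest where the zeros differed most. Without samples 5 and 6 of both genotypes the log2 difference was 1.86 ± 0.198 (SE, n = 4 each). Samples 3 and 4 stayed in that comparison, with zeros at 21.6% and 21.5% in pete2 and 16.7% and 16.9% in WT. The part of the zeros in the MICU difference was not tested.

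**Figure D2:**
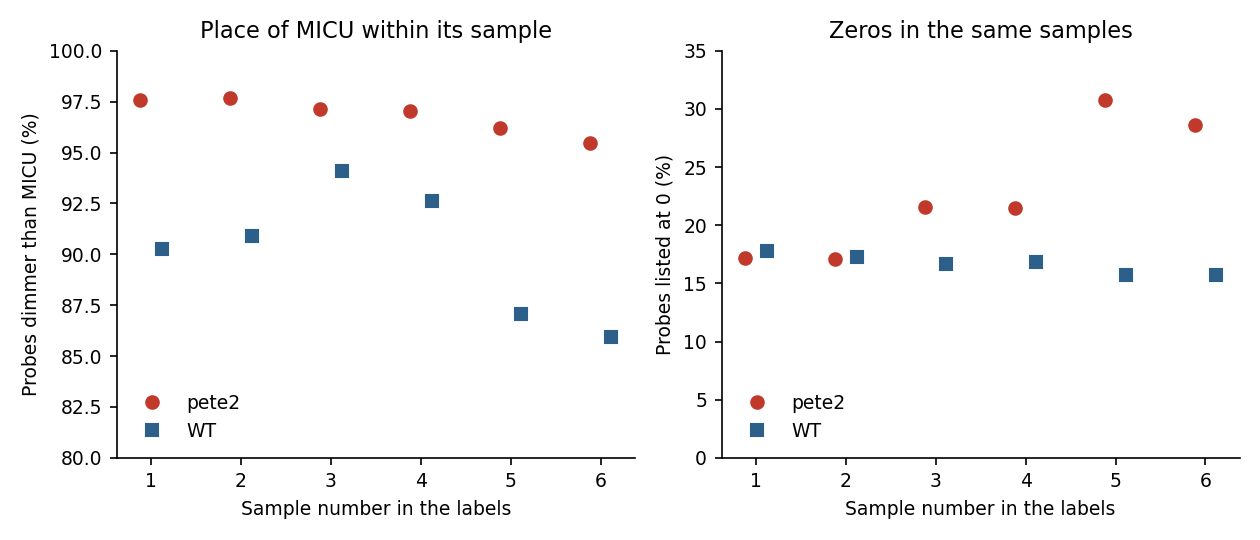
Left, percentage of the 3439 probes dimmer than MICU in each sample (axis from 80 to 100). Right, percentage of probes listed at 0 in the same samples, with sample numbers on both horizontal axes. MICU lies higher in pete2 at every number, from 95.5% up, while zeros reach 30.7% in pete2 sample 5 and stay between 15.7% and 17.8% in WT.

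The partners of MICU were almost absent from the array. Of 122 loci in 5 lists of calcium genes, covering the uniporter family, other calcium-linked proteins of mitochondria, calcium transporters and channels, calmodulins and their relatives, and calcium-dependent kinases with their sensor relatives, 1 had a probe of its own. None of the 6 uniporter loci did. Another 4 loci of these lists were named only on probes shared with other genes and received no value. A search of gene names and synonyms in the RefSeq table for calcium, calmodulin or EF hand found 2 tested genes besides MICU, both calmodulin-like: CML41, which was also the listed one, and CML30. Of these 2 genes 1 rose and 1 fell, where 4.91% of all tested probes rose and 6.29% fell (limma, adjusted p below 0.05), or 4.81% and 7.37% of the single-gene probes. The 2 genes did not share a direction. With the pairs of samples as a random block 1 of the 2 was called, and with the pairs averaged 0 were.

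CML41 (AT3G50770) encodes a calmodulin-like protein known from plasmodesmata, the channels between plant cells, where it acts in their closure. Its normalized intensity was 0.141, 0.251, 0.189, 0.159, 0.223 and 0.265 in pete2 samples 1 to 6, and 0.0939, 0.0856, 0.0746, 0.109, 0.0767 and 0.107 in WT samples 1 to 6. The normalized groups did not overlap, and CML41 rose by 1.15 ± 0.278 on the log2 scale (SE, limma adjusted p = 0.0192). This call rested on normalization. As deposited, CML41 was higher in pete2 for 4 of 6 numbers, at 0.165 ± 0.0807 in pete2 and 0.113 ± 0.0258 in WT (SD, n = 6 each), and the log2 difference of 0.46 did not pass (limma adjusted p = 0.40). It did not pass with the pairs of samples as a random block or averaged (limma adjusted p = 0.127 and 0.324), nor without samples 5 and 6 of both genotypes (limma adjusted p = 0.076).

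CML30 (AT2G15680), a calmodulin-like protein known to be targeted to mitochondria, went the other way. Its deposited intensity was 1.73, 1.97, 1.28, 1.38, 1.98 and 1.70 in pete2 samples 1 to 6, and 5.7, 6.18, 5.68, 5.21, 7.39 and 7.27 in WT samples 1 to 6. Every pete2 value lay below every WT value, as for 9.06% of the tested probes as deposited. On normalized values CML30 fell to 1.83 ± 0.299 in pete2, against 6.70 ± 2.27 in WT (SD, n = 6 each). The log2 difference was -1.82 ± 0.213 (SE, limma adjusted p = 0.000157), which is 3.54-fold lower in pete2. With median centring in place of quantile normalization the log2 difference was -1.20 (limma adjusted p = 0.0378). CML30 passed with the pairs as a random block (limma adjusted p = 0.000352) and missed the threshold with the pairs averaged (limma adjusted p = 0.105). WT samples 5 and 6 were given 1 common value (9.55) by the normalization, and their deposited values are those above.

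**Figure D3:**
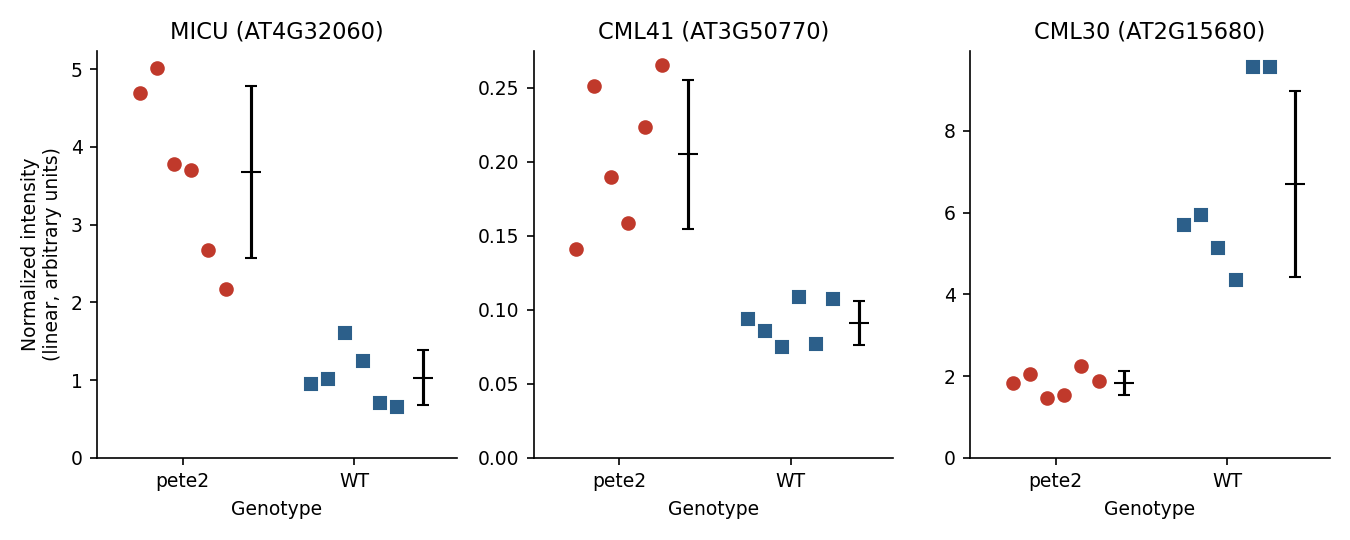
Normalized intensity of MICU, CML41 and CML30 in the pete2 (left) and WT (right) samples of each panel, on linear axes from 0 that differ between panels, in arbitrary units. Points are samples 1 to 6 from left to right, and black bars give the mean and SD of 6. MICU and CML41 lie higher in pete2 (means 3.67 against 1.03 and 0.205 against 0.0911) and CML30 lies lower (1.83 against 6.70).

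Mitochondrial genes were as rare. Of 49 loci for respiration, inner membrane carriers and the tricarboxylic acid cycle, 1 had a probe of its own, and no tested gene carried the word mitochondri in its names and synonyms. The measured locus was AT4G02580, from the respiration list. CML30, described above, was on none of these lists. In pete2, AT4G02580 had deposited values of 0.0787 and 0.0683 for samples 1 and 2 and was listed at 0 for samples 3 to 6. The WT values were 0.0242, 0.0629, 0.234, 0.0415, 0.0578 and 0.00456 for samples 1 to 6. Its log2 difference of -1.57 ± 0.908 (SE), which depends on the floor set for zeros, did not pass the test (limma adjusted p = 0.303).

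The genes whose pattern was most like that of MICU were sought among 334 single-gene probes above 0 in all samples, by Pearson's r of log2 normalized values over the 12 samples. These values share arrays and the split into 2 genotypes, so r is a measure of likeness only. AT4G19900 came first (r = 0.961, Spearman's rho = 0.937). It was followed by AT2G35450 (r = 0.928), AT4G13550 (r = 0.927), AT3G27550 (r = 0.925) and SIS (AT5G02020, r = 0.915), which the RefSeq table lists as salt induced and serine rich. These were the 5 genes with r over 0.9, and 11 genes lay below -0.9. AT4G19900 also followed MICU within each genotype, with r = 0.953 over the 6 pete2 samples and 0.764 over the 6 WT samples. Its deposited intensity was 5.79, 5.88, 6.61, 5.86, 4.21 and 3.85 in pete2 samples 1 to 6, and 0.914, 1.05, 2.49, 3.28, 1.16 and 1.17 in WT samples 1 to 6. Like MICU it was lowest in samples 5 and 6 of pete2 and highest in samples 3 and 4 of WT. SIS shared mainly the step between the genotypes, with r = 0.613 within pete2 and 0.151 within WT.

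Once each genotype's mean was subtracted, other genes came first. AT3G16310 had r = 0.931, AT4G18180 had 0.905, AT4G20300 had 0.873, AT4G16410 had 0.861 and AT2G36480 had 0.859, over the same 12 samples. Within the genotypes they followed MICU in both, AT3G16310 with r = 0.925 in pete2 and 0.949 in WT. Between the genotypes the first 4 of them had normalized log2 differences of 0.79, 0.17, 0.86 and 0.38. These have the sign of MICU's and did not pass the test (limma adjusted p from 0.171 to 0.948). The sign depended on the scale. Their deposited means were 0.353, 1.33, 0.452 and 0.576 in pete2, and 0.349, 1.94, 0.343 and 0.683 in WT. As deposited, AT4G18180 and AT4G16410 were thus lower in pete2. AT2G36480 fell, with a normalized intensity of 0.236 ± 0.14 in pete2 and 1.52 ± 0.912 in WT (SD, n = 6 each) and a log2 difference of -2.57 ± 0.59 (SE, limma adjusted p = 0.0143, and 0.251 with the pairs averaged). What these genes shared with MICU was low values in samples 5 and 6 of both genotypes. In pete2, AT4G18180 had deposited intensities of 1.67 to 2.19 in samples 1 to 4 but 0.0827 and 0.0307 in samples 5 and 6. In WT it had 1.697 to 4.82 in samples 1 to 4 but 0.155 and 0.0909 in samples 5 and 6.

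**Figure D4:**
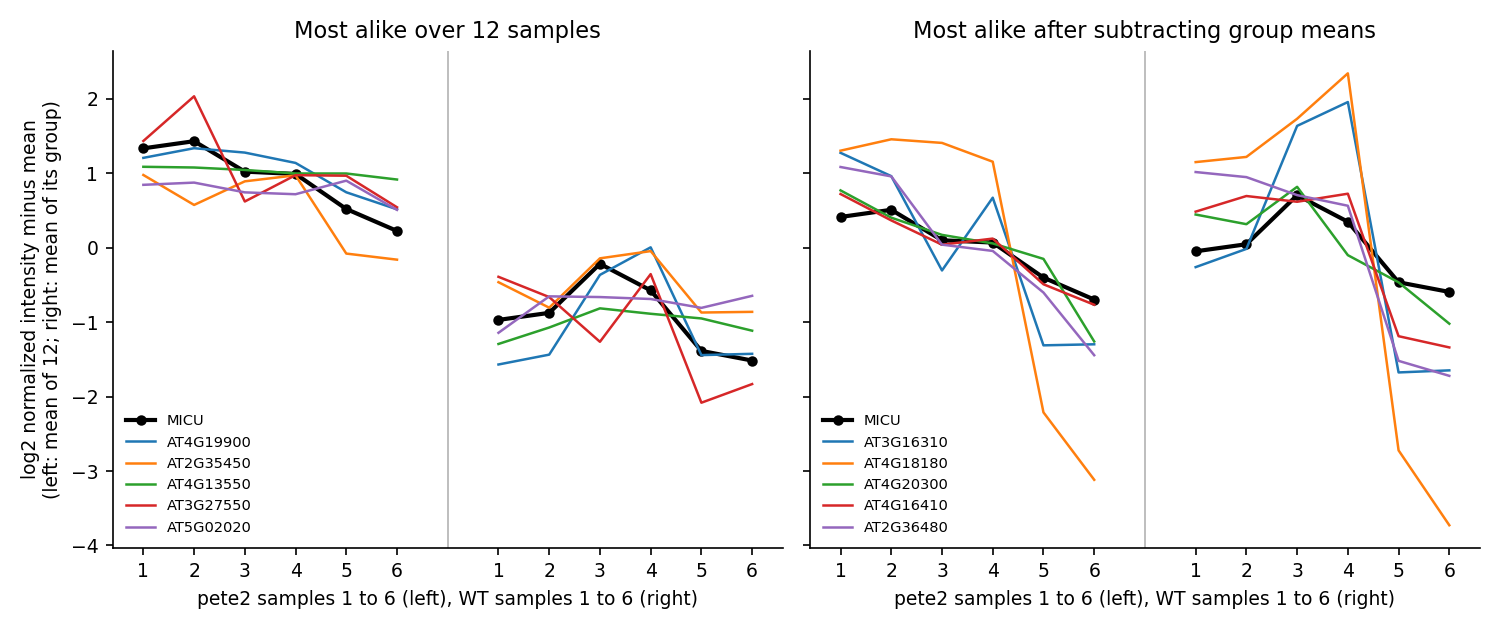
Log2 normalized intensity of MICU (black) and of the 5 genes most like it over 12 samples (left panel) or after subtracting group means (right panel). Values are relative to the gene's mean over 12 samples on the left and to the mean of its genotype on the right, with pete2 samples before WT samples, and lines only join the values of a gene. On the left the lines step down between the genotypes, and on the right they fall together in samples 5 and 6 of both.

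Probes with the nearest numbers to MICU's were read as well, since neighbouring numbers may be neighbouring spots, which the sources used here do not state. Probes 2362, 2365, 2367 and 2368 were dim, with at most 19.8% of the intensity of MICU in the same sample, and the probe table gives none of them a single gene. Probe 2367 had 0.44, 0.643, 0.163, 0.261, 0 and 0.0874 in pete2 samples 1 to 6, and 0, 0, 0.367, 0.26, 0.079 and 0.0293 in WT samples 1 to 6, as deposited. Like MICU it was highest in samples 1 and 2 of pete2 and in samples 3 and 4 of WT, and its r with MICU over the 12 samples was 0.629. The other 3 had r of -0.06, 0.418 and 0.441. None of the 4 passed the test between the genotypes (limma adjusted p from 0.249 to 0.779). AT2G35450, one of the genes most like MICU, was measured on probe 2361, and its r of 0.928 on normalized values was 0.638 as deposited, where it came number 21 of 334. Any part of neighbouring spots in the MICU signal was not tested.

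On the chromosome, the nearest genes with a probe of their own were AT4G31930, with 13 protein-coding genes between it and MICU, and AT4G32340 on the other side, with 31 between, by the gene order of the RefSeq annotation of TAIR10.1. AT4G31930 was listed at 0 in all 12 samples, so it has no measured direction. AT4G32340 fell to a normalized 0.349 ± 0.0706 in pete2, against 1.003 ± 0.223 in WT (SD, n = 6 each), with a log2 difference of -1.51 ± 0.203 (SE, limma adjusted p = 0.000483, and 0.113 with the pairs averaged).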

How the data were processed

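The authors deposited a linear intensity for each of 3439 probes in each of 12 samples, per the value table's columns. Scanner, background correction, scaling and probe sequences are not stated in the sources used here. Of the probes 692 had a single gene in the platform's table, and 690 of these matched RefSeq (TAIR10.1), which served for names and gene order only.

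Intensities were quantile normalized. The 1st percentile of positive values (0.0056) was used as a floor for lower values and for zeros, before taking log2. Without the 118 probes listed at 0 throughout, 3321 were tested, of which 665 had a single gene. The test between genotypes was that of limma 3.58.1 under R 4.3.3 (lmFit, eBayes with trend), with Benjamini-Hochberg adjustment over all tested probes and a threshold of 0.05. The calculation was checked on simulated data holding 200 changed probes. Those samples were drawn independently, without pairs of like samples and without zeros. The check therefore cannot tell how such pairs or the zeros affect the p-values. The number of arrays and the zeros limit precision.

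The gene, lists and alternatives were chosen with earlier results of these data known. The genes named are MICU, the 5 most like it by each measure, all measured members of the lists, and the nearest array genes and probes. Deviations from group means correlated between same-numbered samples at 0.02 to 0.283, and at under 0.1 for numbers 1 and 2. All of these lay above 0, but numbers were not taken as pairs in the main test. Anything shared by number is therefore not modelled there, and an alternative with the number as a block is given below.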

Additional observations from a re-analysis of the deposited data

Results flagged for a closer look

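Among 38 groups of 6 samples checked over the named probes, 4 had a sample whose gap to its nearest neighbour, as a share of the group's range on the log2 scale, exceeded Dixon's critical value of 0.625, and chance gives about 1 in 20 groups. None was a group of MICU, CML41 or CML30. SIS (AT5G02020) was lowest in WT sample 1, with a gap of 0.674. The other 3 were probes with numbers next to MICU's: probe 2362 in pete2 sample 1 (0.68), probe 2367 in pete2 sample 5 (0.742) and probe 2368 in pete2 sample 2 (0.796). In the last 2 the sample was listed at 0, and in pete2 sample 1 probe 2362 lay at the floor, so these gaps depend on the floor.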

How the results depend on the processing

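The log2 difference of MICU moved by less than its SD between samples in the 17 alternatives that could move it. It ran from 1.55 as deposited to 2.25 with median centring, and from 1.75 to 1.98 with each sample left out in turn. As deposited, the median log2 difference over all probes was -0.63. The other 7 (floor, zero filters, blocks, averaged pairs, no trend) leave its value as it is. With the number as a replicate block its SE was 0.173, with 324 calls over all probes. The 372 calls became 168 with the pairs as a random block and 11 with the pairs averaged, and 287 to 423 with 1 sample left out. Calls higher in pete2 were 60 and lower 385 as deposited. Non-overlapping probes were 110 higher and 166 lower in pete2, but 33 and 301 as deposited. With ranks, an alternative chosen after seeing the data, they were 124 and 166. The 1 called calcium gene of the lists, CML41, gave 0 calls as deposited, with the replicate block, the random block, averaged pairs, or without samples 5 and 6, where its log2 difference was 0.97. The 2 called calcium-annotated genes became 1 in these settings and 0 with averaged pairs. Of the 5 genes most like MICU, 3 were shared on deposited intensities, by either measure. No gene of the mitochondrial lists was called in any alternative, and the limma p of AT4G02580 without adjustment was 0.108. CML30, which was called, is not on these lists.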
